A study of Homo sapiens with 15 samples.

Results

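The miR-181 family was followed through small RNA-seq libraries of human embryonic kidney (HEK293) cells, after knockdown of the RNA demethylase FTO and after precipitation with an antibody against N6-methyladenosine (m6A). Its members were taken as every row of the count tables whose name starts with miR-181a, miR-181b, miR-181c or miR-181d. This rule found 9 mature miRNAs of the 2424 listed, 4 from the 5p arm and 5 from the 3p arm of their hairpins, and all 9 were counted in both experiments. The cells were the HEK293 derivatives FTO1C1, FTO2D4 and FTO3C3, each of them 1 clone, kept uninduced. For the knockdown, each clone was transfected with 10 nM of FTO specific siRNA (FTO kd) or of scrambled siRNA (scr) and harvested after 48 h. For the precipitation, small RNA of the same clones, with no siRNA named in the labels, was taken as input, precipitated with the m6A antibody, or precipitated with mouse IgG as isotype control. The 5 groups thus held 3 libraries each, 15 in all, and values below are given in the order FTO1C1, FTO2D4, FTO3C3.

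A miRNA hairpin is cut by Drosha and Dicer into a duplex of a 5p and a 3p strand, of which usually the more abundant is loaded into Argonaute and pairs with target mRNAs through its seed, bases 2 to 8. The miR-181 family is known for its part in the development and the receptor sensitivity of lymphocytes. m6A is set on RNA by methyltransferases such as METTL3 and can be removed by FTO. The antibody is used to pull down RNA that carries the mark, whereas IgG shows what is pulled down without it.

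The mature sequences (RefSeq, GRCh38.p14, 5′ to 3′) are shown because the 5p arms share their seed and most of their bases, whereas the 3p arms do not. Capitals mark the seed.
hsa-miR-181a-5p: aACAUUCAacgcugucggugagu
hsa-miR-181b-5p: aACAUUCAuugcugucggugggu
hsa-miR-181c-5p: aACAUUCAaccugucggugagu
hsa-miR-181d-5p: aACAUUCAuuguugucggugggu
hsa-miR-181a-3p: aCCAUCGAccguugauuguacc
hsa-miR-181a-2-3p: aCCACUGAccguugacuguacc
hsa-miR-181b-3p: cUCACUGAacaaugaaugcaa
hsa-miR-181c-3p: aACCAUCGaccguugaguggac
hsa-miR-181d-3p: cCACCGGGggaugaaugucac
All 9 names were found in the RefSeq table. The 4 5p arms had 1 seed, and the 5 3p arms had 5 different seeds. miR-181b-5p and miR-181d-5p differ by C12U, counted from the 5′ end of miR-181b-5p, and have 22 bases in common. miR-181a-5p and miR-181b-5p differ by A9U, C10U and A21G. miR-181c-5p has the same 22 bases as miR-181a-5p with 1 base missing. A full-length read of miR-181a-5p also has 17 or more bases in exact matches to miR-181b-5p and to miR-181c-5p, which is enough to be counted there. Such reads went to the entry with the most matching bases. The 5p arms can therefore hold each other's shortened or misread reads, whereas no pair of 3p arms is that close.

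The family lies in 3 clusters. MIR181A1 (chr1:198859044-198859153, minus strand) and MIR181B1 (chr1:198858873-198858982, minus strand) lie within the span of the gene MIR181A1HG. MIR181A2 (chr9:124692442-124692551, plus strand) and MIR181B2, whose 5p arm lies at chr9:124693725-124693747, lie within NR6A1 and MIR181A2HG. MIR181C (chr19:13874699-13874808) and MIR181D (chr19:13874875-13875011), both on the plus strand, overlap the span of NANOS3. The mature miR-181a-5p and miR-181b-5p are the same from both of their hairpins, so their counts are sums over chromosomes 1 and 9. The 3p arms keep the loci apart, since miR-181a-3p is cut from MIR181A1 and miR-181a-2-3p from MIR181A2. The letters AAC or GAC, searched on the mature strand only, were present in 8 of 9 members, all but miR-181d-3p, and in 37.4% of the 2127 rows that matched the table by name. The 4 5p arms share their AAC at the first bases, so these are not separate matches. The longer motif RRACH (R is A or G, H is A, C or U) was present in 1 of 9 members, miR-181b-3p. Of the matched rows 21.6% held it.

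The deposited values were raw counts. The FTO kd libraries held 3462842 to 3876806 miRNA reads, the scr libraries 1991317 to 3637951 and the inputs 1408702 to 1500357. The m6A libraries ranged from 569501 to 4973238 reads and the IgG libraries from 186446 (FTO3C3) to 786688. In the precipitates a single entry, miR-6080, took 41.3% to 47.8% of the m6A reads and 58.0% to 71.6% of the IgG reads. It also led the inputs of FTO1C1 (28.4%) and FTO2D4 (26.6%), whereas miR-3168 led that of FTO3C3 (32.3%). In the knockdown experiment miR-10a-5p led every library, with 22.1% to 30.6% of the scr reads and 25.2% to 27.8% of the FTO kd reads. Counts are given below as reads per 1000000 miRNA reads of the library (RPM), so every level depends on this total. Markers of HEK293 cells (miR-10a-5p, miR-10b-5p, miR-196a-5p, miR-92a-3p and miR-20a-5p, 5 of 5 listed) summed to 368979 to 467228 RPM in scr and 393853 to 436432 in FTO kd, but to 1010 to 2419 in IgG. Markers of blood cells (6 of 6 listed, none at 0 throughout) summed to 92.1 to 116 RPM in scr, 486 to 914 in input, 903 to 2084 in m6A and 91.7 to 123 in IgG, most of it miR-223-3p in input and m6A. Markers of muscle and liver summed to at most 103 and 59.3 RPM. Whether these markers have a part in the results below was not tested. FTO is an mRNA and was not measured in these libraries, so its knockdown was not analysed here. The study itself reported reduced FTO in these clones by qRT-PCR and Western blot.

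In scr cells each 5p arm outnumbered the 3p arms of the same letter (a to d) in every library. miR-181a-5p was the most abundant member, with 2393, 3598 and 2806 RPM, and stood at ranks 48, 34 and 50 of 2418 miRNAs. miR-181b-5p followed with 1205 ± 108 RPM (mean ± SD, n = 3), miR-181c-5p with 917 ± 98.4 and miR-181d-5p with 415 ± 46.3. The ranges of these first 3 and of miR-181d-5p did not overlap. Among the 3p arms, miR-181c-3p reached 373 ± 44.8 RPM, which overlapped miR-181d-5p. miR-181a-3p followed with 185 ± 34.9 RPM. The 3 lowest members, miR-181a-2-3p (77.8 ± 14.1), miR-181b-3p (51.4 ± 13.9) and miR-181d-3p (30.3 ± 15.6), each overlapped the next in this order. All members together made up 0.527% to 0.702% of the scr reads, and 11.4% to 11.8% of them came from 3p arms. All 9 had at least 15 RPM in each scr library, as did 42.7% of the 2418 miRNAs. The cutoff follows the study's methods, and its use on the scr libraries as the mark of an expressed miRNA is a choice made here. In these bulk libraries, fewer cells with a miRNA and less of it per cell cannot be told apart.

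**Figure D1:**
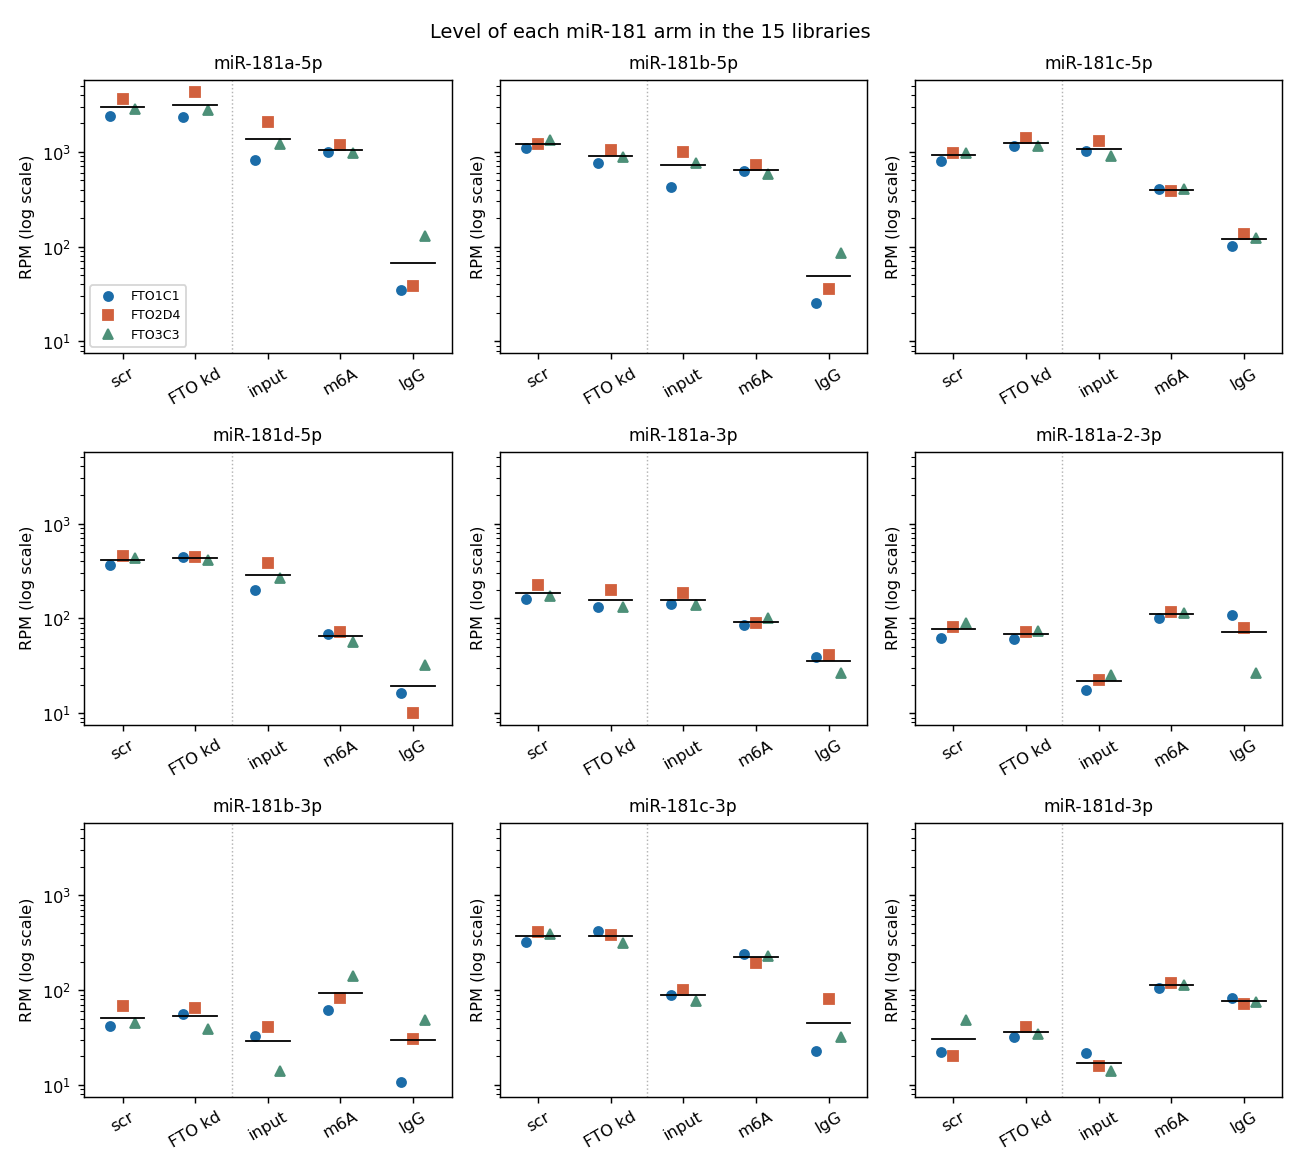
RPM (log scale) of each member in the 15 libraries, 1 panel per member, with the knockdown groups left and the precipitation groups right of the dotted line. Points are libraries, coloured by clone, and black lines are group means; miR-181a-5p was above 968 RPM in every m6A library and at most at 129 RPM in IgG, whereas miR-181d-3p was above 71 RPM in both.

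The knockdown asks whether less of the demethylase alters miRNA levels. All 9 members passed the filter on low counts in every comparison. None of them passed edgeR's quasi-likelihood test at a Benjamini-Hochberg adjusted p of 0.05, where 5.48% of the 2374 miRNAs tested did (4.97% higher and 0.505% lower). An unadjusted p under 0.05 was reached by 2 of 9, miR-181b-5p and miR-181c-5p, and by 26.2% of all miRNAs tested, so this count is no more than the background. The 2 differed in opposite directions. The median log2 fold change of the members was 0.05 against 0.29 over all miRNAs tested, and 7 of 9 members lay below that median. None had a mean ratio over 2 with at least 15 RPM in each FTO kd library, which 1.45% of the 2418 miRNAs did. None had one under 0.5 with at least 15 RPM in each scr library, which 0.165% did. At a lower fold threshold the study itself listed miR-181b-5p, and no other member, among the miRNAs changed after knockdown.

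miR-181b-5p measured 1103, 1195 and 1318 RPM in scr and 767, 1039 and 872 RPM in FTO kd. Every FTO kd library lay below every scr library. The ratio within the clones was 0.695, 0.870 and 0.662 (0.742 ± 0.112, SD), and the log2 fold change was -0.44 ± 0.15 (SE) with an edgeR adjusted p of 0.104. The call depended on the scaling, since with TMM factors, which bring the median of all miRNAs from 0.29 to -0.0003, the log2 fold change was -0.73 with an adjusted p of 0.0320. By DESeq2 it was -0.74 with an adjusted p of 0.00214.

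miR-181c-5p measured 803, 978 and 970 RPM in scr and 1156, 1381 and 1144.5 RPM in FTO kd. Here every FTO kd library lay above every scr library. The within-clone ratios were 1.44, 1.41 and 1.18 (1.34 ± 0.142), and the log2 fold change was 0.42 ± 0.14 (SE) with an edgeR adjusted p of 0.107. With TMM factors it was 0.13 with an adjusted p of 0.727. Set against each other within a library, which needs no total, there were 0.728, 0.818 and 0.736 reads of miR-181c-5p per read of miR-181b-5p in scr and 1.51, 1.33 and 1.31 in FTO kd. The order of both arms was thus exchanged between scr and FTO kd in all 3 clones. In the inputs, which belong to the other experiment and have no siRNA named in their labels, the ratio was 2.37, 1.30 and 1.21. There too miR-181c-5p was the more abundant, as in FTO kd and unlike scr. This ratio was chosen after its values were seen and was not tested. Of all 5p reads, miR-181b-5p held 19.2% to 23.8% in scr and 14.6% to 16.9% in FTO kd, and miR-181c-5p held 15.7% to 17.5% and 19.4% to 24.5%.

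The groups of the other members overlapped, and none of them passed the edgeR test. How many of all miRNAs had groups without overlap was not counted. The separation of miR-181b-5p and miR-181c-5p therefore has no background beside it. miR-181a-5p measured 2353, 4253 and 2743.5 RPM in FTO kd, so that FTO2D4 was the highest in both groups and the log2 fold change was 0.06 ± 0.14. miR-181a-3p was lower in all 3 clones, with within-clone ratios of 0.824, 0.887 and 0.779, but its groups overlapped and the log2 fold change of -0.27 ± 0.16 had an edgeR adjusted p of 0.303 (DESeq2, -0.57 and 0.0494). miR-181d-3p, the least abundant member, had the widest spread, with within-clone ratios of 1.46, 2.03 and 0.712. The remaining members, miR-181a-2-3p, miR-181b-3p, miR-181c-3p and miR-181d-5p, had log2 fold changes between -0.16 and 0.07.

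**Figure D2:**
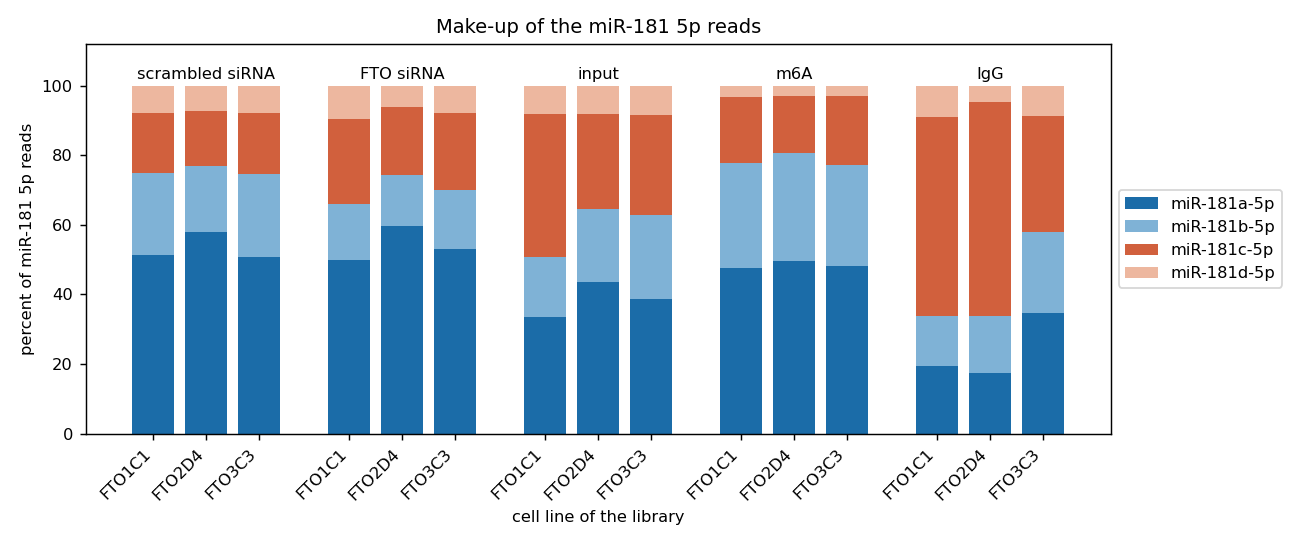
Share of each member in the miR-181 5p reads of every library, in percent of the 5p reads (bars stack to 100%). The miR-181b-5p band held 19.2% to 23.8% in scr and 14.6% to 16.9% in FTO kd, and in IgG of FTO1C1 and FTO2D4 miR-181c-5p held 57.1% and 61.6%, against 33.3% in FTO3C3.

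Precipitation with the m6A antibody was compared with IgG to ask which miRNAs are recovered above the isotype control. All 4 5p arms and 3 of 5 3p arms were higher in m6A than in IgG, 7 of 9 members, where 39.8% of the 2054 miRNAs tested were called (38.6% higher and 1.27% lower). The members' median log2 fold change was 1.77 against 0.83 over all miRNAs. With TMM factors that overall median was 0.06, 5 members were called higher (22.1% of all miRNAs) and the split over all miRNAs moved from 792 higher and 26 lower to 453 and 302. DESeq2 called 3 members higher, miR-181a-5p, miR-181b-5p and miR-181c-3p, where it called 17.9% of all miRNAs higher and 12.1% lower.

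miR-181a-5p rose most among the members. It measured 1003, 1167 and 968 RPM in m6A (571, 1591 and 4816 reads) and 35.1, 38.1 and 129 RPM in IgG (26, 30 and 24 reads). The m6A libraries lay close together, whereas the IgG library of FTO3C3, the shallowest, stood above the other two. The log2 fold change was 4.26 ± 0.45 (SE) with an edgeR adjusted p of 0.000131, and the within-clone ratios were 28.6, 30.6 and 7.52. miR-181b-5p came next, with 632, 727 and 587 RPM in m6A against 25.6, 35.6 and 85.8 RPM in IgG. Its log2 fold change was 3.95 ± 0.42 with an edgeR adjusted p of 0.000132.

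The 5p arms from chromosome 19 were higher in m6A by less. miR-181c-5p measured 400.35, 382 and 403 RPM in m6A and 103, 135 and 123 RPM in IgG, and both groups were tight. Its log2 fold change was 1.72 ± 0.29 with an edgeR adjusted p of 0.00161. miR-181d-5p was low in both, with 68.5, 72.6 and 56.7 RPM against 16.2, 10.2 and 32.2 RPM (12, 8 and 6 reads in IgG), and its log2 fold change was 1.99 ± 0.46 with an edgeR adjusted p of 0.00867. Without the libraries of FTO2D4 the adjusted p of miR-181d-5p was 0.0863. The difference between the arms from different chromosomes was not tested.

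Of the 3p arms, miR-181c-3p showed the largest difference, with 241, 192 and 231 RPM in m6A and 22.9, 80.1 and 32.2 RPM in IgG. Its log2 fold change was 2.40 ± 0.47 with an edgeR adjusted p of 0.00344. miR-181b-3p measured 61.5, 82.2 and 140 RPM in m6A and 10.8, 30.5 and 48.3 RPM in IgG (8, 24 and 9 reads), a log2 fold change of 1.77 ± 0.38 with an edgeR adjusted p of 0.00556. miR-181a-3p measured 84.3, 89.5 and 99.7 RPM against 39.1, 40.7 and 26.8 RPM, a log2 fold change of 1.31 ± 0.35 with an edgeR adjusted p of 0.0165. This last call was lost without FTO2D4 (adjusted p = 0.0697) or without FTO3C3 (0.0629), and with TMM factors neither miR-181a-3p (adjusted p = 0.260) nor miR-181b-3p (0.0605) passed.

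The arms miR-181a-2-3p and miR-181d-3p did not pass the test. miR-181a-2-3p measured 100.1, 117 and 114 RPM in m6A and 108, 78.8 and 26.8 RPM in IgG, so the groups overlapped. The log2 fold change was 0.69 ± 0.43 with an edgeR adjusted p of 0.239. miR-181d-3p measured 105, 118 and 113 RPM in m6A and 82.3, 71.2 and 75.1 RPM in IgG. These groups did not overlap, but the difference was small, with a log2 fold change of 0.56 ± 0.32 and an edgeR adjusted p of 0.199. Under TMM factors, DESeq2 and totals without miR-6080 the log2 fold change of both arms was below 0. The study's methods ask for a cutoff on the level and a fold enrichment over IgG, without saying how clones are combined. Read here as at least 100 RPM in each m6A library and a mean of the 3 within-clone ratios of at least 2, this was met by 5 members and by 11.8% of 2189 miRNAs. With each of the 3 ratios at least 2 it was met by 4 members, miR-181a-5p, miR-181b-5p, miR-181c-5p and miR-181c-3p, and by 10.1% of miRNAs. The member lost was miR-181a-2-3p, whose mean ratio of 2.22 ± 1.79 (SD) rested on FTO3C3, with 0.928, 1.48 and 4.26 in the clones. The study's own list of enriched miRNAs held the 4 members just named and not miR-181a-2-3p.

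**Figure D3:**
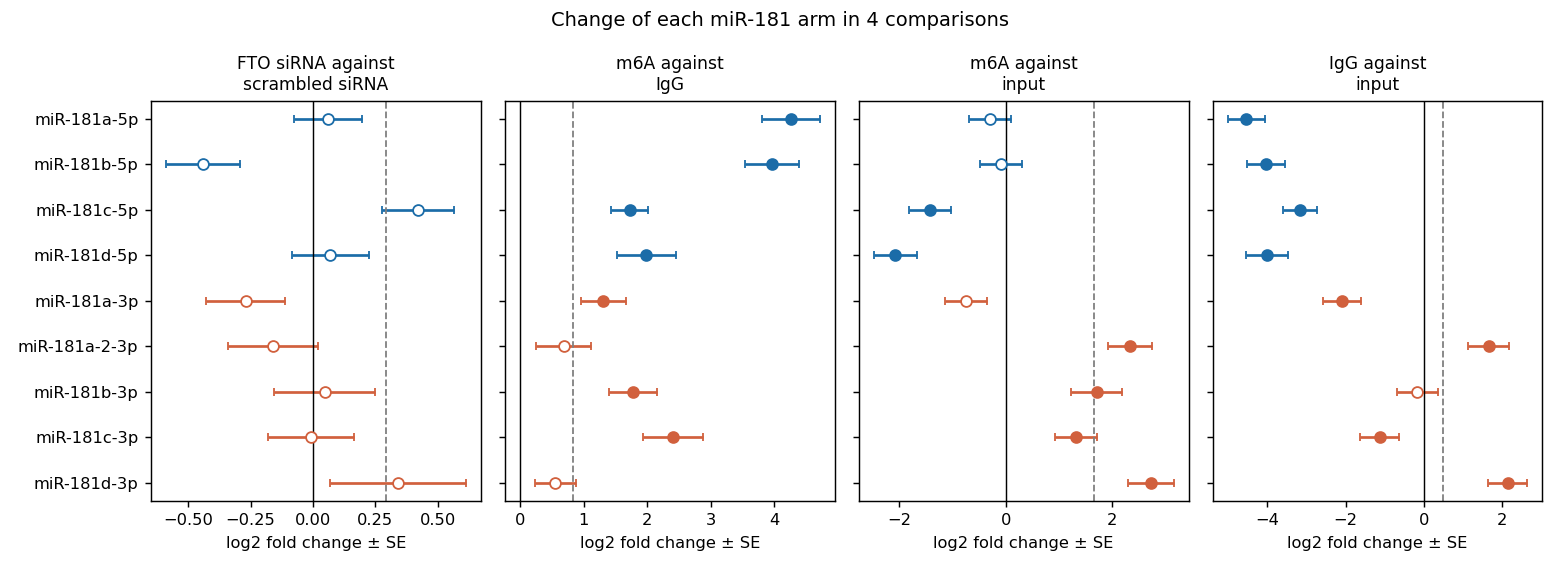
Log2 fold change of each member (edgeR, points with SE bars) in the 4 comparisons, with 5p arms in blue and 3p arms in red, filled where the adjusted p was under 0.05. The dashed line is the median of all miRNAs tested (0.29, 0.83, 1.65 and 0.49 from left to right), and each panel has its own scale; no point is filled in the knockdown panel, and 7 are in that of m6A against IgG.

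Both precipitates were also compared with the input, and these comparisons share libraries with the one above. Against input, m6A was higher for 4 of 9 members, all of them 3p arms, and lower for 2, both 5p arms. Over all 2174 miRNAs tested, 77.3% were called (66.8% higher and 10.5% lower). Their median was 1.65 on the log2 scale, which 3 members exceeded. With TMM factors, where that median was 0.10, 1 member (miR-181d-3p) was higher and 5 were lower, and the split over all miRNAs was 575 higher and 614 lower in place of 1452 and 229.

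miR-181d-3p measured 22.0, 15.8 and 14.0 RPM in input against 105 to 118 RPM in m6A, a log2 fold change of 2.72 ± 0.43 with an edgeR adjusted p of 3.14e-06. miR-181a-2-3p measured 17.7, 22.6 and 25.3 RPM in input, and its log2 fold change was 2.34 ± 0.42 with an edgeR adjusted p of 1.56e-05. Every m6A library lay above every input library for both, and the same held for miR-181b-3p and miR-181c-3p. How many of all miRNAs were separated in this way was not counted. miR-181b-3p and miR-181c-3p had log2 fold changes of 1.71 ± 0.48 and 1.31 ± 0.39 with edgeR adjusted p of 0.00203 and 0.00366. The call of miR-181b-3p rested on FTO3C3, where the within-clone ratio was 9.97 against 1.88 and 2.03, and without that clone the log2 fold change was 0.97 with an adjusted p of 0.0511. The value of miR-181c-3p was below 0 with TMM factors (-0.23) and DESeq2 (-0.26).

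On the 5p side, miR-181a-5p measured 823, 2075 and 1219 RPM in input, a range that included all 3 m6A libraries, and its log2 fold change was -0.29 ± 0.40. miR-181b-5p was at -0.09 ± 0.40. Neither passed the test (edgeR adjusted p of 0.508 and 0.836). Both calls depended on the scaling, since with TMM factors miR-181a-5p was at -1.84 (adjusted p of 0.00153) and miR-181b-5p at -1.64 (0.00328), and with DESeq2 they were at -1.87 (1.82e-06) and -1.66 (5.01e-05). miR-181c-5p was lower, with 1012, 1300.3 and 908 RPM in input and a log2 fold change of -1.42 ± 0.39 (edgeR adjusted p of 0.00194; 0.0515 without miR-6080 in the totals). miR-181d-5p fell further, from 199, 386 and 265 RPM in input to at most 72.6 RPM, a log2 fold change of -2.07 ± 0.41 (edgeR adjusted p of 4.92e-05). miR-181a-3p, with 141, 184 and 138 RPM in input, was at -0.75 ± 0.39 (edgeR adjusted p of 0.0803, and 0.0441 without the clone as a block). It was called lower with TMM factors (-2.30, adjusted p of 0.000177) and with DESeq2 (-2.32, 5.59e-10).

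In IgG, 6 of 9 members were lower than in input and 2 were higher, where 58.6% of the 1941 miRNAs tested were called (21.8% lower and 36.8% higher). All 4 5p arms were lower, with log2 fold changes from -4.54 ± 0.48 (miR-181a-5p) to -3.16 ± 0.44 (miR-181c-5p). The 3p arms split. miR-181a-3p (-2.10 ± 0.49) and miR-181c-3p (-1.13 ± 0.49) were lower, miR-181b-3p was at -0.17 ± 0.53, and miR-181a-2-3p (1.66 ± 0.52) and miR-181d-3p (2.14 ± 0.50) were higher. Without FTO1C1 the edgeR adjusted p of miR-181a-2-3p was 0.255 and that of miR-181c-3p 0.452. By DESeq2 miR-181a-2-3p did not pass (adjusted p = 0.102), and miR-181c-3p did not pass without the clone as a block (0.0652) and was at 0.03 without miR-6080 in the totals. In this comparison edgeR gave every miRNA the same spread around its trend, so the p-values rest little on each member's own replicates. Over all miRNAs, the log2 fold change between IgG and input correlated with the log2 level in scr cells (Pearson r = -0.62, 1938 miRNAs, all from the same libraries and not independent), between m6A and input at -0.45 (2171 miRNAs) and between m6A and IgG at 0.39 (2051 miRNAs). The 5p arms are the abundant members, and the part of abundance in their values was not tested.

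The 5p and 3p arms of the same letter (a to d) were finally compared as the ratio of 5p to 3p reads within a library. This ratio does not depend on the total. For miR-181a and miR-181b the 5p count sums both hairpins, whereas each 3p arm comes from a single hairpin. The same miR-181a-5p count enters both pairs of miR-181a, so these pairs are not independent. For miR-181a-5p to miR-181a-3p the ratio was 14.96, 16.002 and 16.5 in scr, 17.8, 21.3 and 20.7 in FTO kd, 5.83, 11.3 and 8.84 in input, 11.9, 13.04 and 9.71 in m6A, and 0.897, 0.938 and 4.80 in IgG. For miR-181d-5p to miR-181d-3p it was 16.3, 22.2 and 9 in scr, 13.8, 10.8 and 11.95 in FTO kd, 9.06, 24.5 and 19.0 in input, 0.650, 0.615 and 0.503 in m6A, and 0.197, 0.143 and 0.429 in IgG. The 3p arm of miR-181d was thus the more abundant one in all 6 precipitates and the less abundant one in the other 9 libraries.

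**Figure D4:**
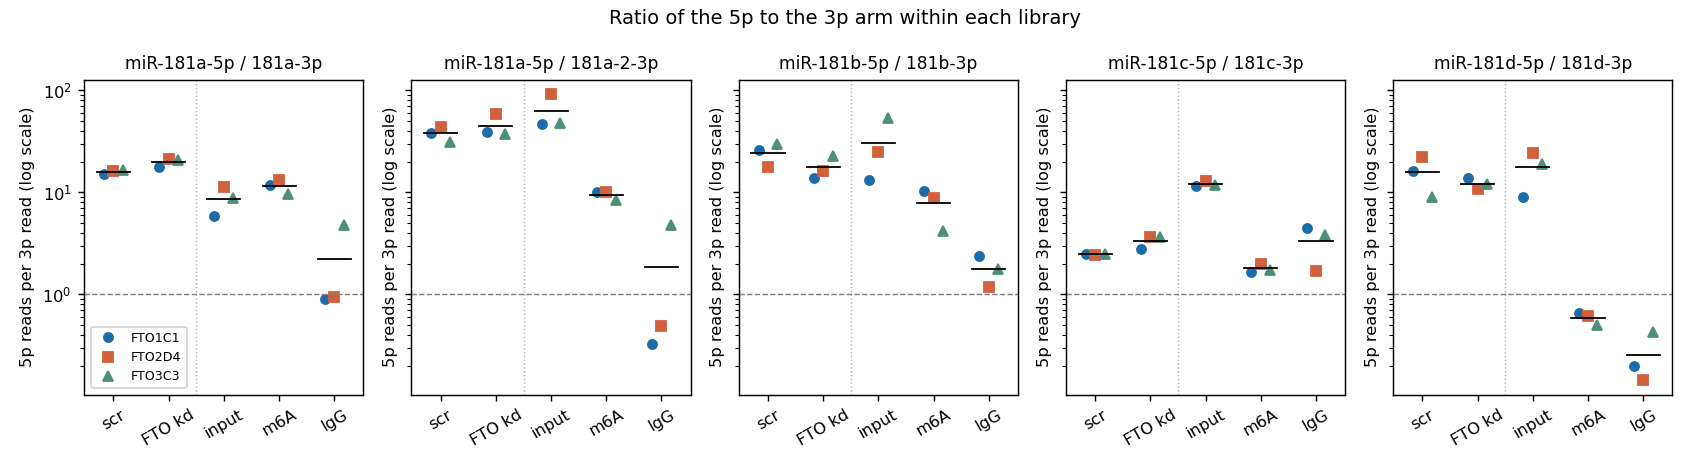
Reads of the 5p arm per read of the 3p arm (log scale) within each library for the 5 arm pairs. Points are libraries coloured by clone, black lines are group means, and the dashed line marks a ratio of 1; only miR-181d lies below 1 in every m6A and IgG library, and no knockdown or input library does so for any pair.

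After FTO knockdown none of the 5 member pairs changed by limma's moderated test on the log2 ratios, where 2.92% of 718 pairs did (1.25% higher and 1.67% lower). The pair of miR-181c was nearest, with 2.49, 2.40 and 2.49 5p reads per 3p read in scr and 2.77, 3.604 and 3.62 in FTO kd, a log2 change of 0.43 ± 0.14 (SE, unadjusted p of 0.00921, limma adjusted p of 0.141). Without FTO1C1 it was 0.57 with an adjusted p of 0.0350. Between m6A and IgG, 3 of 5 pairs had a higher 5p to 3p ratio in m6A (31.2% of 609 pairs were called, 20.7% higher and 10.5% lower). These were miR-181a with its 2-3p arm (3.40 ± 0.70), miR-181a with its 3p arm (2.88 ± 0.57) and miR-181b (2.11 ± 0.47), with limma adjusted p of 0.00626, 0.00547 and 0.00861. Without FTO2D4 none of them passed, with limma adjusted p of 0.160, 0.124 and 0.0986. miR-181c (-0.73 ± 0.41) and miR-181d (1.29 ± 0.53) did not pass (limma adjusted p of 0.199 and 0.0899), although miR-181d did so without FTO3C3 (1.86, adjusted p of 0.0391).

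Against input, 4 of 5 pairs had a lower 5p to 3p ratio in m6A, where 55.2% of 616 pairs were called (24.5% lower and 30.7% higher). The log2 change was -4.75 ± 0.45 for miR-181d, -2.74 ± 0.27 for miR-181c, -2.62 ± 0.38 for miR-181a with miR-181a-2-3p and -1.82 ± 0.62 for miR-181b. The limma adjusted p were 0.000216, 0.000258, 0.00120 and 0.0398, of which the last was 0.180 without FTO3C3. The pair of miR-181a with miR-181a-3p was at 0.46 ± 0.32 (limma adjusted p of 0.266). In IgG all 5 pairs were lower than in input, from -6.05 ± 0.65 (miR-181d) to -2.001 ± 0.53 (miR-181c), where 59.7% of 442 pairs were called (33.7% lower and 26.0% higher), again with 1 spread for all pairs. In sum over the members, 3p arms held 7.11% to 10.9% of the family's reads in input, 20.3% to 25.7% in m6A and 59.5%, 57.9% and 36.1% in IgG. Over all miRNAs with a named arm the 3p share was 35.3% to 39.7% in input, 31.5% to 33.1% in m6A and 50.3% to 54.3% in IgG. The family's share of the library was 0.276% to 0.513% in input, 0.270% to 0.295% in m6A and 0.0442% to 0.0579% in IgG.

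The 3p arms of miR-181a from chromosomes 1 and 9 were also set against each other. Reads of miR-181a-3p per read of miR-181a-2-3p numbered 2.58, 2.74 and 1.90 in scr, 2.17, 2.76 and 1.78 in FTO kd and 7.96, 8.15 and 5.45 in input. In m6A they numbered 0.842, 0.767 and 0.873, and in IgG 0.363, 0.516 and 1.00. The scr and FTO kd libraries overlapped, as did m6A and IgG, whereas the inputs lay above all others. Both arms have 22 bases, of which 19 are the same, and they differ by U5C, C6U and U16C counted from the 5′ end of miR-181a-3p. The ratio was described after its values were seen, with no test.

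The miRNA whose pattern over the 15 libraries was most like that of miR-181a-5p, among 1233 with at least 15 RPM on average in both experiments, was miR-181b-5p (Pearson r of log2(RPM + 1), centred within each experiment, 0.99). miR-363-3p (0.99), miR-182-5p (0.98), miR-130a-3p (0.97) and miR-5694 (0.97) came next. Of the other members, miR-181c-5p and miR-181d-5p were at 0.88, at ranks 97 and 101, miR-181a-3p at 0.86, miR-181c-3p at 0.70 and miR-181b-3p at 0.45. miR-181a-2-3p was at -0.26 and miR-181d-3p at -0.35. These values share their libraries and totals and are a description.

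Among the 2127 of 2424 listed miRNAs that matched the RefSeq table by name, miR-4262 was the only one outside the family with the seed of the 5p arms. The unmatched miRNAs were not searched.
hsa-miR-4262: gACAUUCAgacuaccug
It was rare, with 48, 42 and 53 reads in scr, 50, 48 and 47 in FTO kd and 11, 20 and 19 in input. In m6A it had 38, 114 and 586 reads and in IgG 2, 6 and 0. Its edgeR log2 fold change was 4.21 ± 0.55 between m6A and IgG (adjusted p of 0.000437) and 2.96 ± 0.44 between m6A and input (adjusted p of 1.05e-06), and the former depends on the few IgG reads. In the latter comparison the 5p arms of the family were lower or did not pass, and the difference between them and miR-4262 was not tested. After FTO knockdown it was at -0.44 ± 0.26 with an edgeR adjusted p of 0.301.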

How the data were processed

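Per the labels and the study's methods, small RNA (under 200 nt) was sequenced with TruSeq small RNA libraries, and the authors trimmed adapters with cutadapt, filtered trimmed reads to 16 to 28 bp, and assigned them to mature sequences of miRBase release 20 where exact stretches of 7 or more bases covered 17 or more. No genome alignment was used. The authors deposited raw counts per mature miRNA, neither normalised nor pooled, in 1 table per experiment (2418 and 2189 miRNAs). Members, lists and tests were chosen with earlier results of these data known. The named miRNAs are the rows by the name rule, any row matched to RefSeq by name that has the 5p seed, and the 5 rows most like miR-181a-5p.

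Counts were tested over all rows with edgeR 4.0.16 (quasi-likelihood test, library size equal to total miRNA reads, filterByExpr with a minimum count of 10, clone as block, SE derived from the F statistic) in R 4.3.3, adjusted by Benjamini-Hochberg at 0.05. Arm ratios, log2((5p + 0.5)/(3p + 0.5)), were tested with limma 3.58.1 (trend) over pairs with mean counts of at least 10. The alternatives were TMM, DESeq2 1.42.0, no filter, no block, totals without the top miRNA, offset 3, minimum 50, other cutoffs and each clone left out. The steps were also run on simulated counts with planted changes, and the outcome is not reported here. These changes went up and down alike, so the simulation does not bear on the choice of scaling.

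The clone pairs the libraries, since libraries of 1 name come from the same clone. Deviations from group means of paired libraries correlated at 0.334, 0.225 and 0.294 for the knockdown, 0.0119 to 0.0311 for m6A and IgG, -0.0878 to -0.0314 for m6A and input, and -0.0289 to 0.0609 for IgG and input. Libraries of a group differed beyond sampling noise (chi-square per degree of freedom of 7.79 to 166). Sequences came from RefSeq (GRCh38.p14).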

Additional observations from a re-analysis of the deposited data

How the results depend on the processing

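Of the values for single members and pairs, 341 kept direction and side of the threshold under the alternatives, 12 newly passed, 25 no longer passed and 27 changed sign. The scaling moved the most. Members called after FTO knockdown numbered 0, but 1 with TMM factors and 2 with DESeq2, where miR-181a-5p (-0.23 with both), miR-181b-3p (-0.25 with both) and miR-181d-5p (-0.22 and -0.23) turned negative. Over all miRNAs, the 118 higher and 12 lower became 21 and 34 with TMM factors, 33 and 61 with DESeq2, 169 and 21 with totals without miR-10a-5p, and 0 without FTO1C1 (327 at an unadjusted p under 0.05). In m6A against IgG, members called numbered 7 (39.8% of all miRNAs), but 3 with DESeq2 (30% of all miRNAs). There miR-181a-2-3p and miR-181d-3p became -0.09 and -0.19 with TMM factors, -0.09 and -0.23 with DESeq2 and -0.03 and -0.13 with totals without miR-6080. In m6A against input, miR-181c-3p became -0.23 with TMM factors and -0.26 with DESeq2, and miR-181a-5p and miR-181b-5p were called lower with both, whereas totals without miR-6080 gave 0.17 and 0.37. In IgG against input, those totals gave 0.97 for miR-181b-3p and 0.03 for miR-181c-3p, with 1231 higher and 273 lower over all miRNAs in place of 714 and 423. The cause of these shifts was not tested beyond the change of total.

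With a clone left out, member pairs called numbered 0 to 1 for the knockdown and 0 to 4 for m6A against IgG. The 1 came without FTO1C1, where 11 of 722 pairs were called over all. The 4 came without FTO3C3, where 141 of 548 were. Without FTO2D4, the 190 pairs called over all in m6A against IgG became 42. Where a sign changed with a clone left out, the values in the knockdown ranged from -0.03 (without FTO2D4) to 0.11 for miR-181a-5p, from -0.14 (without FTO1C1) to 0.16 for miR-181b-3p, from -0.05 (without FTO1C1) to 0.15 for miR-181d-5p, from -0.20 to 0.14 for miR-181c-3p (0.03 without FTO2D4), and from -0.63 to 0.09 (without FTO2D4) for the pair of miR-181d. In m6A against input, miR-181b-5p ranged from -0.41 to 0.10 (without FTO2D4; 0.05 without FTO3C3), and in IgG against input miR-181b-3p ranged from -0.91 to 0.55 (without FTO1C1). With a minimum mean count of 50, 2 member pairs were called in IgG against input, as no others were tested, and 47 of 61 pairs over all. With a cutoff of 15 in place of 100 RPM, 8 members and 44.2% of all miRNAs met the rule for enriched.

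Without the replicate block, members called were 0 for the knockdown, where 41 in place of 130 miRNAs were called. They were 7 for m6A against IgG, where 42.9% of all miRNAs were called. For m6A against input they were 7 in place of 6 (79.5% of all miRNAs). For IgG against input they were 7 in place of 8 (61.1% of all miRNAs). The IgG libraries hold 5 to 106 reads per member, which limits every ratio to IgG.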
